A study of Mus musculus with 6 samples.

Results

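The 35 genes described here are those of glycolysis and of the response to low oxygen, taken from a list of named genes. No cut on their measured values was used, but the list was chosen with earlier results of these data known. All 35 were among the 21720 gene symbols of the table and all 35 passed the filter on low values, which left 14963 genes. By role they were 2 glucose transporters, 6 genes of upper glycolysis, 2 regulators of phosphofructokinase, 9 genes of lower glycolysis, 4 genes of the lactate and pyruvate branch, 4 genes of hypoxia-inducible factor (HIF) subunits and prolyl hydroxylases and 8 other targets of HIF. RNA-seq measured transcripts of subcutaneous H22 tumours of wild-type female BALB/c mice aged 6 to 8 weeks, in 3 libraries of the control group and 3 of the luteolin group. The control group received 0.5% carboxymethyl cellulose sodium and the luteolin group 200 mg/kg of luteolin, a plant flavone, each by gavage once a day for 21 days in 0.2 ml, from a tumour volume of about 50 mm3. H22 is a single mouse hepatocellular carcinoma cell line, here grown under the skin and not in the liver. Nothing in the labels says whether the 3 libraries of a group came from separate mice, so the p-values measure the spread between libraries.

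Glycolysis turns glucose into pyruvate in the cytosol, and tumour cells often run it at a high rate and export the product as lactate even where oxygen is present. HIF is a transcription factor of an oxygen-labile alpha subunit (HIF-1α or HIF-2α) and a stable partner, and it binds DNA at a short core, ACGTG or GCGTG. When oxygen is plentiful, prolyl hydroxylases mark the alpha subunit for breakdown. When oxygen falls, the subunit persists and raises the transcripts of glucose transporters, of nearly every step of glycolysis, of genes for blood vessel growth and pH control, and of some of the hydroxylases themselves. The amount of HIF protein is set mainly after translation and was not measured here.

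The libraries held totals of 61081637 to 80442954 estimated counts. The second luteolin library stood apart by epidermal transcripts. The 7 keratinocyte markers summed to 9668 CPM there, 545 and 157 CPM in the other luteolin libraries and 176 to 189 CPM in the controls. Most of the control sums was Dsp, at 172 to 186 CPM, as was most of the sum of luteolin 3, at 142 CPM. Krt5, Krt14, Krt1 and Lor were at 0 in the controls. Of the 7 markers, 4 were higher in every luteolin library, against 15.9% of all genes. Krt14 was at 157, 2439 and 4.33 CPM there, so such transcripts were not confined to luteolin 2. CPM, the unit of every level given here, is a gene's count scaled to the TMM-adjusted total of its library, and TMM is a scaling that keeps most genes level between libraries. The libraries also differed by base composition within each group: Spearman's rho between a gene's deviation from the mean and its GC content, over 14635 genes, was 0.42, -0.17 and -0.52 in the controls and -0.18, 0.43 and -0.36 in the luteolin libraries. Of the hepatocyte markers, Afp was at 59.4, 66.7 and 43.4 CPM in the controls and at 32.7, 41.8 and 38.8 CPM under luteolin. Over all libraries Alb was at 0.868 to 133 CPM and Hnf4a at most at 0.327 CPM.

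Of the 35 genes, 3 rose under luteolin, namely Pfkfb3, Egln3 and Adm, and the others did not pass the test, among them every enzyme of the glycolytic chain itself. By edgeR's quasi-likelihood test, with p-values adjusted over all 14963 genes by the Benjamini-Hochberg method, these 3 genes (8.57% of the 35) were higher at an adjusted p under 0.05, against 1.34% of all genes. None of the 35 was lower at that threshold, against 0.187% of all genes. At an unadjusted p under 0.05 the same test had 3 of the 35 lower (Pfkm, Aldoc and Slc16a1), against 6.44% of all genes, and 11 higher, against 14%. At an adjusted p under 0.05, 2 were lower with DESeq2, against 2.33% of all genes, and 3 with voom, against 8.76%, so that the voom share was at the level of all genes. At the study's own threshold, an unadjusted p under 0.05 with a log2 fold change over 1, the fourth gene to pass was Car12. That made 4 genes higher (11.4%), close to the 11.3% of all genes, and 0 lower, against 1.52% of all genes.

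The median log2 fold change of the 35 genes was 0.025 and that of all genes -0.0073. Every luteolin library lay above every control library for 10 genes (28.6%), against 15.9% of all genes. These were Slc2a1, Hk2, Pfkfb3, Aldoa, Eno2, Epas1, Egln1, Egln3, Car12 and Adm. Every luteolin library lay below every control for 6 genes (17.1%), a share near the 12.8% of all genes. These were Hk1, Pfkm, Pfkp, Aldoc, Tpi1 and Slc16a1. Together the 35 genes took 2.14% to 2.53% of the scaled total in the controls and 1.95% to 2.41% in the luteolin libraries. In a bulk sample, fewer cells of a type and less RNA per cell cannot be told apart.

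**Figure D1:**
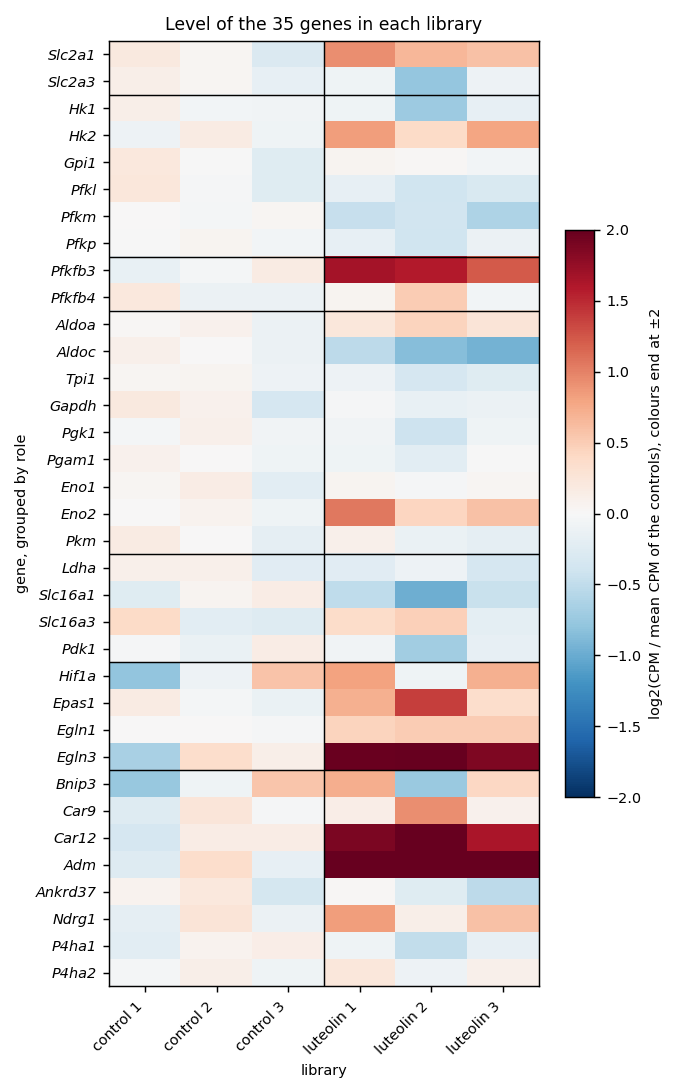
Level of the 35 genes (rows, grouped by role, a black line between roles) in the 6 libraries (columns), as the log2 of CPM over the mean CPM of the 3 controls. The colours end at 2 in either direction. Pfkfb3, Egln3, Car12 and Adm are high in all 3 luteolin libraries, Aldoc and Slc16a1 are low in all 3, and Hif1a and Bnip3 vary as much within a group as between the groups.

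Pfkfb3 encodes the bifunctional enzyme that makes fructose 2,6-bisphosphate, the strongest activator of phosphofructokinase. It was at 28.3, 30.3 and 35.2 CPM in the controls and at 99.2, 93.6 and 73.3 CPM in the luteolin libraries. The lowest luteolin value was above the highest control by more than the SD of either group, 3.52 CPM in the controls and 13.6 CPM under luteolin. Pfkfb3 thus rose 2.84-fold, a log2 fold change of 1.51 ± 0.18 (SE, 95% interval 1.08 to 1.93, adjusted p = 0.0331).

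Egln3 encodes the prolyl hydroxylase PHD3, itself a well-known target of HIF. Its levels were 3.32, 6.67 and 5.66 CPM in the controls and 20.6, 21.9 and 18.9 CPM under luteolin. The luteolin libraries lay close together and the lowest control was about 2.01-fold under the highest. The log2 fold change was 1.97 ± 0.31 (SE, 95% interval 1.24 to 2.70, adjusted p = 0.0420), a 3.92-fold rise.

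Adm encodes adrenomedullin, a peptide that widens and stabilises blood vessels. It was at 2.45, 3.74 and 2.64 CPM in the controls and at 18.8, 12.5 and 14.9 CPM in the luteolin libraries. No luteolin value came near the controls, and the counts behind them were 171, 242 and 170 against 1152, 1048 and 950. Adm rose 5.24-fold, the largest rise of the 3, with a log2 fold change of 2.39 ± 0.31 (SE, 95% interval 1.66 to 3.12, adjusted p = 0.0331).

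The 3 calls depended on which library was left out. Without control 1, 2 or 3 or without luteolin 1, no member and no other gene passed an adjusted p under 0.05, and Pfkfb3 had an adjusted p of 0.143, 0.207, 0.137 and 0.124 in turn. At an unadjusted p under 0.05, 9 of the 35 genes were higher in each of these 4 edgeR fits, against 9.52% to 12.7% of all genes. Without luteolin 3, Pfkfb3 passed (adjusted p = 0.0381), whereas Adm (0.0510) and Egln3 (0.0614) did not. Without luteolin 2, the library with the most epidermal transcripts, 5 genes were higher: the same 3, Hk2 (log2 fold change 0.83, adjusted p = 0.0447) and Car12 (1.79, adjusted p = 0.0415). Of all genes, 1.82% were higher without luteolin 2 and 0.993% without luteolin 3. Over these 6 fits the log2 fold change of Pfkfb3 ran from 1.41 to 1.60, that of Egln3 from 1.70 to 2.17 and that of Adm from 2.22 to 2.59.

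Markers of several other cell types were also higher on average in the luteolin group. The summed level of the 5 general leukocyte markers was 199 to 241 CPM in the controls and 438, 602 and 429 CPM in the luteolin libraries, with 4 of the 5 higher in every luteolin library. The 8 macrophage markers summed to 966 to 1136 CPM and to 1511, 2267 and 1800 CPM (6 of 8 higher in every luteolin library). The 7 neutrophil markers summed to 46.3 to 52.4 CPM and to 226, 229 and 123 CPM (5 of 7), and the 6 T cell markers in the table to 12.7 to 14.7 CPM and to 43.3, 82.9 and 47.9 CPM (6 of 6). For each of these immune lists, no luteolin sum reached down to the controls. The sums of the 6 fibroblast markers were 1408 to 1575 CPM and 4067, 4976 and 2012 CPM (5 of 6), and those of the 6 endothelial markers 86.1 to 107 CPM and 165, 265 and 100.3 CPM (2 of 6). Luteolin 3 was the lowest of the luteolin libraries in both, and within the range of the controls for the endothelial sum. None of the markers of these 6 lists was at 0 in all controls. Red cell markers went the other way, at 26.9 to 35.4 CPM in the controls and 14.7, 23.7 and 8.14 CPM under luteolin, with 3 of 6 lower in every luteolin library. The part of these cells in the levels of Pfkfb3, Egln3 and Adm was not tested. The summed muscle, adipocyte and hepatocyte markers overlapped between the groups. Muscle sums were 396 to 963 CPM in the controls and 206 to 1013 CPM under luteolin. Adipocyte sums were 13.8 to 58.7 and 15.0 to 233 CPM, with Lep at 0 in all controls. Hepatocyte sums were 45.7 to 131 and 75.3 to 181 CPM. Of the 8 hepatocyte markers, 1 was higher and 1, Afp, lower in every luteolin library, against 15.9% and 12.8% of all genes.

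The stretches upstream of the start sites of the genes that rose are shown because HIF is known to bind a short core sequence near its target genes. RefSeq promoters of build GRCm38.p6, running from 250 bases before to 50 after a start, matched 32 of the 35 genes and gave 45 promoters. Slc2a3, Ndrg1 and Epas1 had no entry. Printed are the 250 bases before the start, 5′ to 3′ on the gene's strand, with matches to ACGTG or GCGTG on either strand in capitals. Read on the other strand these motifs appear as CACGT and CACGC. Ldha, a gene that did not pass, is given as a contrast.
Pfkfb3, first start (chr2:11553930-11554179, minus strand): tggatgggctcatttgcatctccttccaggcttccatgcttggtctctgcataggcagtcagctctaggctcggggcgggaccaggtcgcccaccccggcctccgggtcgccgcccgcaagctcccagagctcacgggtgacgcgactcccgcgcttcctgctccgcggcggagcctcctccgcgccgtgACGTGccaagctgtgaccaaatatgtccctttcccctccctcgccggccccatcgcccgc
Pfkfb3, second start (chr2:11502091-11502340, minus strand): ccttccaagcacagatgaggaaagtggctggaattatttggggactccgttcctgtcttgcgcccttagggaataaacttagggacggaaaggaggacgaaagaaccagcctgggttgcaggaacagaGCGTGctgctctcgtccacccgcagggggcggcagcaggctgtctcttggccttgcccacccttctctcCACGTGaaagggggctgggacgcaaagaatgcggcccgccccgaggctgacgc
Egln3 (chr12:54203875-54204124, minus strand): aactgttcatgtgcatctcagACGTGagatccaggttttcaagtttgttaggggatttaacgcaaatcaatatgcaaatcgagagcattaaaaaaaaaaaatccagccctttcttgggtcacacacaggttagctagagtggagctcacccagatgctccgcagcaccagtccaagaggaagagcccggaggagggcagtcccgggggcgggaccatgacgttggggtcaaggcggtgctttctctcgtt
Adm (chr7:110627407-110627656, plus strand): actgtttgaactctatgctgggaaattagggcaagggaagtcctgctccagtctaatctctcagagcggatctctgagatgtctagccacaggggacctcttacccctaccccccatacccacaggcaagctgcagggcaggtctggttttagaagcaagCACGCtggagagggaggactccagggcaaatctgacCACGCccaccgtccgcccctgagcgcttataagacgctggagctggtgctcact
Ldha, first start (chr7:46845554-46845803, plus strand): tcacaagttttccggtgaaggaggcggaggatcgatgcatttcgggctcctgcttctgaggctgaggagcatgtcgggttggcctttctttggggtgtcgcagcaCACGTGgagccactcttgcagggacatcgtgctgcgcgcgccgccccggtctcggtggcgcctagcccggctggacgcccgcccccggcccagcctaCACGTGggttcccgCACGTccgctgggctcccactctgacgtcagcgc

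The first stretch of Pfkfb3 held 1 match to ACGTG, and the second held 2 matches to ACGTG and 1 to GCGTG. The 2 matches came from 1 palindromic CACGTG, which counts on each strand. Egln3 held 1 match to ACGTG near the far end of the stretch, and Adm held 2 to GCGTG and 0 to ACGTG. Ldha held 5 matches to ACGTG in its first stretch, the most of the stretches printed, and its levels overlapped between the groups. Its second stretch, not printed, held 0 matches to ACGTG and 1 to GCGTG. Car12, with the largest log2 fold change of the set, had no match to either motif in its 300 bases.

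Over whole promoters of 300 bases, ACGTG was present in 25 of 45 (55.6%), against 19.6% of 32851 mouse promoters in the table, and GCGTG in 25 of 45 (55.6%), against 32.4%. At least 1 of the 2 was present in 36 promoters, against 43.8% of all. The promoters of the 35 genes were also richer in GC, with a median of 62.3% against 52.7%. Both motifs hold a CG pair, so their share moves with base composition, and promoters of 1 gene can overlap, as those of Aldoa and Eno1 do. The 2 motifs were counted apart, also where they shared a base. A match is a description of letters and not of binding.

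The HIF subunits and prolyl hydroxylases were the role with the highest median but for the 2 phosphofructokinase regulators: all 4 genes had a positive log2 fold change, with a median of 0.70, and Egln3 alone passed. Egln1 encodes PHD2, the main oxygen sensor of the pathway. It was at 74.5, 74.3 and 72.4 CPM in the controls and at 101, 105 and 105 CPM in the luteolin libraries. The groups were separate and each was narrow (SD 1.19 and 2.52 CPM). Its log2 fold change was 0.49 ± 0.12 (SE, adjusted p = 0.103), and it passed with DESeq2 and voom only.

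Epas1 encodes HIF-2α, which is abundant in endothelial cells and macrophages. Its levels were 46.9, 40.8 and 38.2 CPM in the controls and 68.6, 109 and 53.5 CPM under luteolin. All luteolin libraries were above the controls, and luteolin 2 was far above the other luteolin libraries. The log2 fold change was 0.88 ± 0.28 (SE, adjusted p = 0.153), or 0.56 without luteolin 2 (adjusted p = 0.215). With all libraries it passed with DESeq2 (adjusted p = 0.0383) and voom (0.0165). The order of the luteolin libraries was that of the summed endothelial markers, 165, 265 and 100.3 CPM. The leukocyte, neutrophil, fibroblast, keratinocyte, adipocyte, muscle and red cell sums stood in that order too. In the controls the endothelial sums, 86.1, 88.2 and 107 CPM, had the reverse order of Epas1. The part of any of these cells in the level of Epas1 was not tested.

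Hif1a encodes HIF-1α. It was at 53.8, 86.2 and 138 CPM in the controls and at 161, 87.0 and 152 CPM in the luteolin libraries. The controls alone spanned 2.57-fold, and the groups overlapped. The log2 fold change was 0.53 ± 0.38 (SE, 95% interval -0.38 to 1.43, adjusted p = 0.497). Hif1a has the lowest GC content of the 35, 41.3%, and its control levels followed in reverse the rho of each control with GC content given above. With offsets that take GC content and length out of each library, its log2 fold change was 0.71 (adjusted p = 0.0391), and with voom and sample weights 0.85 (adjusted p = 0.0241).

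Among the 8 other targets of HIF, Adm alone passed and 6 had a positive log2 fold change (median 0.35). Car12 encodes carbonic anhydrase XII, a membrane enzyme that converts carbon dioxide and helps to keep pH. Its levels were 1.83, 2.56 and 2.57 CPM in the controls and 8.60, 56.0 and 7.21 CPM in the luteolin libraries. All 3 luteolin libraries were above the controls, with luteolin 2 at 7.76 times the lowest luteolin library. This gave a log2 fold change of 3.36 ± 0.85 (SE, 95% interval 1.35 to 5.38, adjusted p = 0.103). Car12 passed with DESeq2 (adjusted p = 0.000124) and voom (0.0222). Without luteolin 2 its log2 fold change was 1.79, with an adjusted p of 0.0415. Luteolin 2 was also the library with 9668 CPM of keratinocyte markers, and their part in the level of Car12 there was not tested.

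Car9, the other hypoxia-responsive membrane carbonic anhydrase, was low and showed no separation. It was at 4.04, 5.67 and 4.70 CPM in the controls and at 5.26, 9.10 and 5.07 CPM under luteolin (log2 fold change 0.43 ± 0.36, SE, adjusted p = 0.556). Its interval, -0.41 to 1.28, left room for a change of more than 2-fold.

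Ndrg1, a stress-responsive gene induced by hypoxia and iron loss, was at 390, 529 and 409 CPM in the controls and at 786, 478 and 666 CPM under luteolin. Luteolin 2 lay among the controls and the other luteolin libraries were above them. On the log2 scale the fold change was 0.54 ± 0.22 (SE, adjusted p = 0.235), and 0.73 without luteolin 2 (adjusted p = 0.0953). It passed with voom (adjusted p = 0.0256). Bnip3, a mitochondrial receptor for mitophagy, was at 60.6, 96.2 and 150 CPM in the controls and at 170, 61.2 and 136 CPM under luteolin. Like Hif1a it is poor in GC, 41.6%, its controls spanned 2.48-fold, and they stood in the same order. The log2 fold change of 0.26 ± 0.45 (SE, adjusted p = 0.803) changed sign when control 1 or luteolin 1 was left out, at -0.011 and -0.054.

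The remaining 3 targets did not pass, and each overlapped between the groups. Ankrd37, a small ankyrin-repeat gene, was at 16.1, 17.7 and 12.0 CPM in the controls and at 15.5, 12.9 and 10.7 CPM under luteolin. P4ha1 and P4ha2 encode catalytic subunits of collagen prolyl 4-hydroxylase, which collagen needs to fold. P4ha1 was at 207, 252 and 263 CPM and at 227, 171 and 214 CPM, and P4ha2 at 106, 119 and 103 CPM and at 128, 102 and 118 CPM. Their log2 fold changes were -0.23 (Ankrd37), -0.24 (P4ha1) and 0.080 (P4ha2), with adjusted p-values of 0.682, 0.498 and 0.821.

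**Figure D2:**
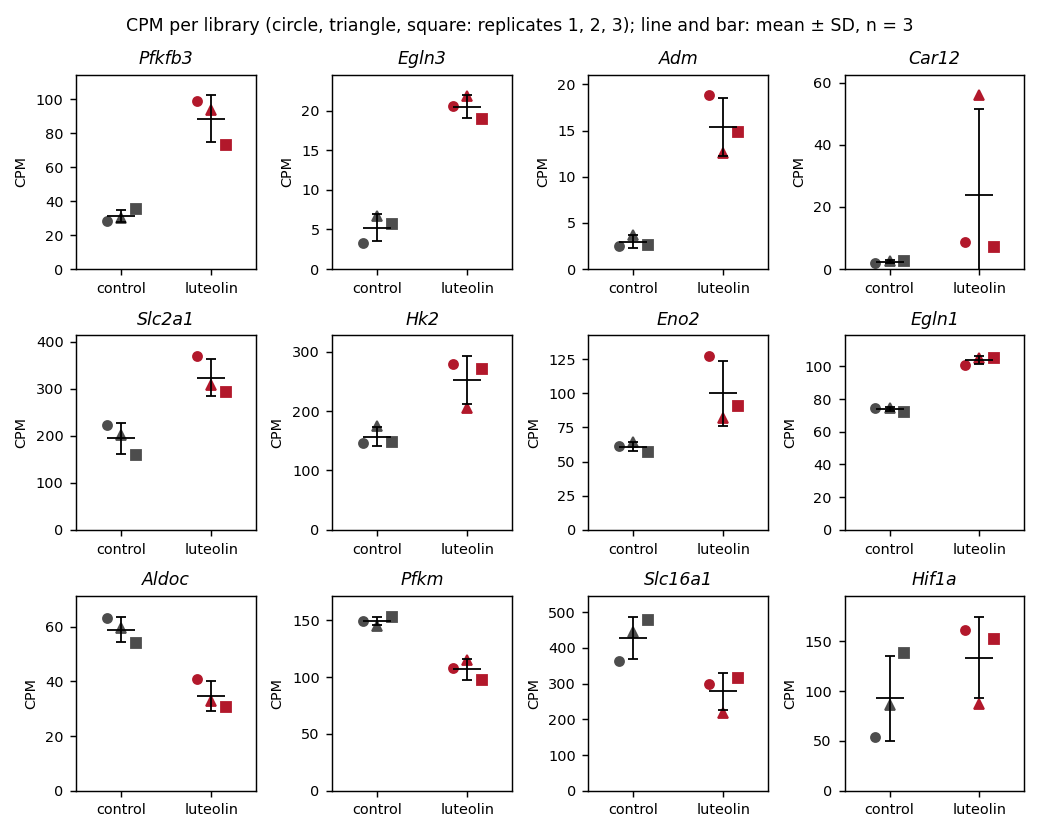
CPM of 12 of the genes in each library (circle, triangle and square stand for replicates 1, 2 and 3), with the mean and SD of the 3 libraries of a group and each axis starting at 0. The groups are apart for all but Hif1a. These 12 genes were picked for display, and of all 35 genes the groups overlap for 19. The SD bar of Car12 under luteolin, drawn down to 0, comes from luteolin 2 at 56.0 CPM.

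Neither of the 2 glucose transporters passed. Slc2a1 encodes GLUT1, the transporter of most dividing cells. It was at 224, 201 and 159 CPM in the controls and at 370, 309 and 294 CPM under luteolin. The groups did not overlap, and the log2 fold change was 0.74 ± 0.18 (SE, 95% interval 0.31 to 1.16, adjusted p = 0.0973). It passed with DESeq2 (adjusted p = 0.00968), with voom (0.00473) and with the GC and length offsets (0.0483). Slc2a3 encodes GLUT3, a transporter of high affinity typical of neurons and leukocytes. It was at 7692, 7280 and 6373 CPM in the controls and at 6707, 4173 and 6613 CPM under luteolin. Luteolin 2 was low and the other luteolin libraries lay among the controls, with a log2 fold change of -0.29 ± 0.20 (SE, adjusted p = 0.490).

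Per length of the longest annotated transcript, Slc2a3 was the most abundant of the 35 genes in the controls, at 1138 ± 108 CPM per kb (SD, n = 3). Gapdh (995 ± 184), Pkm (903 ± 107), Pgk1 (830 ± 53.0) and Tpi1 (813 ± 47.9 CPM per kb) came next, and neighbours in this order lay within 1 SD, the larger of the 2, of each other. Slc2a1 was at 59.8 ± 10.0 CPM per kb. The least abundant were Car12 (0.625 ± 0.11), Egln3 (1.96 ± 0.65), Adm (2.12 ± 0.50) and Car9 (2.37 ± 0.41 CPM per kb). Pfkfb3 came next, at 6.51 ± 0.73 CPM per kb, so that the 3 genes that rose all started from among the lowest levels of the set. The length is that of the longest transcript in GENCODE M21, 6253 bases for Slc2a3 and 3289 for Gapdh. A shorter transcript in use would raise the value and could change the order of the genes.

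Of the 6 genes of upper glycolysis, none passed and 4 had a negative log2 fold change (median -0.25). Hexokinase traps glucose in the cell by adding a phosphate. Hk2, the inducible form, was at 147, 176 and 149 CPM in the controls and at 279, 205 and 271 CPM under luteolin. The groups were apart, with luteolin 2 the nearest to the controls, and the log2 fold change was 0.68 ± 0.17 (SE, 95% interval 0.27 to 1.09, adjusted p = 0.103). It passed with DESeq2 (adjusted p = 0.0168) and voom (0.00473). Hk1, the housekeeping form, was at 940, 831 and 830 CPM and at 816, 523 and 774 CPM. Its luteolin libraries were all below the controls, 2 of them by little (log2 fold change -0.30 ± 0.19, SE, adjusted p = 0.443).

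Phosphofructokinase commits sugar to glycolysis. Pfkm, the muscle form, was at 150, 145 and 153 CPM in the controls and at 108, 115 and 97.2 CPM in the luteolin libraries. Every luteolin library was below every control and both groups were narrow. The log2 fold change was -0.48 ± 0.13 (SE, 95% interval -0.80 to -0.17, adjusted p = 0.120), and it passed with DESeq2, voom and the GC and length offsets. Pfkp, the platelet form, was at 364, 381 and 353 CPM and at 327, 278 and 338 CPM, below every control by a smaller distance (-0.22 ± 0.14, SE, adjusted p = 0.425). Pfkl, the liver form, was at 444, 372 and 318 CPM and at 336, 288 and 307 CPM, with overlap (-0.28 ± 0.17, SE, adjusted p = 0.394). Gpi1, which turns glucose 6-phosphate into fructose 6-phosphate, was at 716, 615 and 520 CPM and at 641, 625 and 593 CPM, and its 95% interval was -0.36 to 0.37.

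Of the regulators of phosphofructokinase, Pfkfb4 did not pass. It was at 37.4, 29.7 and 29.6 CPM in the controls and at 33.6, 45.7 and 31.0 CPM under luteolin. Only luteolin 2 was above the controls, and the log2 fold change was 0.19 ± 0.21 (SE, 95% interval -0.31 to 0.69, adjusted p = 0.678). That interval did not meet the one of Pfkfb3.

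None of the 9 genes of lower glycolysis passed, and their median log2 fold change was -0.094. Aldolase splits the sugar in the middle of the pathway. Aldoc, the brain form, was at 63.1, 59.5 and 54.1 CPM in the controls and at 41.0, 32.7 and 30.5 CPM under luteolin. Every luteolin library was below every control, and its log2 fold change of -0.76 ± 0.17 (SE, 95% interval -1.17 to -0.35, adjusted p = 0.0845) was the most negative of the 35. It passed with DESeq2, voom and the GC and length offsets. Aldoa, the muscle and general form, was at 1001, 1041 and 912 CPM and at 1158, 1338 and 1179 CPM. Here every luteolin library was above every control, by less (0.31 ± 0.13, SE, adjusted p = 0.236).

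Enolase makes phosphoenolpyruvate. Eno2, the neuronal form, was at 61.3, 64.3 and 57.4 CPM in the controls and at 127, 81.7 and 91.1 CPM under luteolin. The groups were apart and luteolin 1 was the highest (log2 fold change 0.71 ± 0.20, SE, 95% interval 0.25 to 1.18, adjusted p = 0.120), and Eno2 passed with DESeq2 (adjusted p = 0.0322) and voom (0.00684). Eno1, the general form, was at 937, 1019 and 792 CPM and at 953, 905 and 938 CPM, all luteolin values within the range of the controls. Its log2 fold change was 0.025 (95% interval -0.31 to 0.36).

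The other genes of lower glycolysis, each the main enzyme of its step, were abundant and lay close to the controls. Gapdh was at 3758, 3463 and 2596 CPM in the controls and at 3223, 2964 and 3011 CPM under luteolin. Tpi1 was at 1341, 1361 and 1219 CPM and at 1216, 1038 and 1111 CPM. Pgk1 was at 1480, 1625 and 1441 CPM and at 1446, 1140 and 1433 CPM. Of these, Tpi1 was below every control in all luteolin libraries, the first of them only just. Pgam1 was at 555, 525 and 494 CPM and at 494, 452 and 522 CPM. Pkm, pyruvate kinase, was at 2452, 2202 and 1934 CPM and at 2361, 2003 and 1929 CPM. Their log2 fold changes ran from -0.22 for Tpi1 to -0.066 for Pkm, with adjusted p-values from 0.393 to 0.855, and the 95% intervals of these 5 genes lay between -0.52 and 0.29. Many mouse glycolytic genes, Gapdh above all, have processed pseudogenes, and how the authors' counting shared their reads is not given in the sources used here.

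In the lactate and pyruvate branch none of the 4 genes passed (median log2 fold change -0.25). Slc16a1 encodes MCT1, which carries lactate in either direction. It was at 364, 444 and 477 CPM in the controls and at 300, 218 and 316 CPM in the luteolin libraries. Every luteolin library was below every control, with luteolin 2 the lowest, and the log2 fold change was -0.62 ± 0.19 (SE, 95% interval -1.08 to -0.17, adjusted p = 0.150). It passed with voom (adjusted p = 0.0109). Slc16a3 encodes MCT4, the exporter that HIF induces. It was at 148, 99.1 and 95.5 CPM and at 148, 159 and 100.3 CPM, with overlap (log2 fold change 0.25 ± 0.25, SE, adjusted p = 0.640).

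Ldha, which makes lactate from pyruvate, was at 1357, 1361 and 1084 CPM in the controls and at 1087, 1182 and 1006 CPM under luteolin. The groups overlapped, with a log2 fold change of -0.22 ± 0.15 (SE, 95% interval -0.56 to 0.13, adjusted p = 0.475). Pdk1, the kinase that holds pyruvate back from the mitochondrion, was at 116, 107 and 132 CPM and at 113, 73.2 and 105 CPM. Luteolin 2 was the low one, and the log2 fold change was -0.28 ± 0.20 (SE, adjusted p = 0.489).

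**Figure D3:**
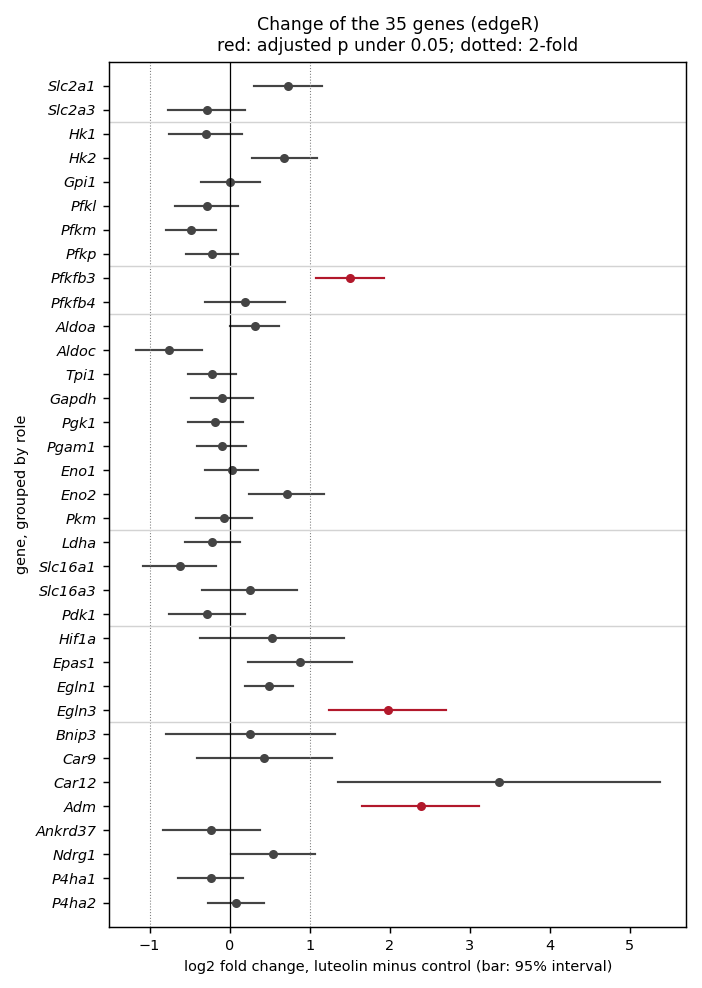
Log2 fold change of each of the 35 genes, luteolin minus control, with its 95% interval from edgeR's fit (red where the adjusted p is under 0.05; dotted lines at a 2-fold change; grey lines between roles). Pfkfb3, Egln3 and Adm lie above 1 with their whole interval, Car12 has the widest interval, 1.35 to 5.38, and the abundant enzymes of lower glycolysis lie near 0.

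Within each library, ratios of 2 isoenzymes or paralogs are free of the scaling between libraries, but not of differences by GC content. They were formed for 13 pairs from the estimated counts, not per length, and compared by an exact two-sided permutation test over the 6 libraries, whose smallest possible p with 3 against 3 is 0.1. With p-values adjusted over the 13 pairs the smallest possible value here was 0.144, so the test could not reach 0.05. For 9 pairs the groups were separate, 6 with a higher and 3 with a lower ratio in every luteolin library. The share over other gene pairs was not computed. Of single genes, 15.9% were above and 12.8% below every control in every luteolin library. In all the separate pairs but P4ha2/P4ha1 at least 1 gene was itself apart between the groups, so most of these ratios restate single genes.

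Hk2 over Hk1 had log2 ratios of -2.68, -2.24 and -2.48 in the controls and -1.55, -1.35 and -1.51 under luteolin. The luteolin libraries lay close together, although luteolin 2 was the lowest of them for both genes, and the ratio was higher by a log2 of 1.00 (exact permutation p = 0.1). GLUT3 over GLUT1, Slc2a3/Slc2a1, had log2 ratios of 5.10, 5.18 and 5.32 in the controls and 4.18, 3.75 and 4.49 under luteolin. Slc2a3 counts were thus far above those of Slc2a1 in every library, and the ratio was lower under luteolin by a log2 of 1.06 (difference -1.06; exact permutation p = 0.1). Aldoc over Aldoa was at -3.99, -4.13 and -4.07 in the controls and at -4.82, -5.35 and -5.27 under luteolin, a difference of -1.08, with an SD of 0.071 in the controls and 0.29 under luteolin.

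Pfkfb4/Pfkfb3 had a difference of -1.32, from a control mean of 0.042 to -1.28 under luteolin. The counts of the 2 regulators were near each other in the controls and apart under luteolin. Egln3/Egln1 was higher by a log2 of 1.53, Eno2/Eno1 by 0.66, Car12/Car9 by 2.32 and P4ha2/P4ha1 by 0.32. Each of these 5 pairs had separate groups. In the first 4 of them at least 1 gene of the pair was itself apart between the groups, whereas P4ha1 and P4ha2 each overlapped and only their ratio did not. P4ha1 has a GC content of 45.7% and P4ha2 of 52.1%. Within each group their ratio had the order of the libraries' rho with GC content given above, whose part in it was not tested.

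Lactate dehydrogenase is a tetramer of the subunits of Ldha and Ldhb. Ldhb was scarce, at 3.09, 1.78 and 2.12 CPM in the controls and at 5.86, 14.3 and 5.49 CPM under luteolin. All luteolin libraries were above the controls, luteolin 2 most, and the log2 ratio Ldhb/Ldha was -9.10 ± 0.41 in the controls and -7.13 ± 0.67 under luteolin (SD, n = 3). In every library Ldha counts remained far above those of Ldhb. For Pfkp/Pfkl (difference 0.050), Pfkm/Pfkl (-0.21), Slc16a3/Slc16a1 (0.88) and Epas1/Hif1a (0.24) the groups overlapped, with exact permutation p-values of 0.9, 0.3, 0.2 and 0.7.

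**Figure D4:**
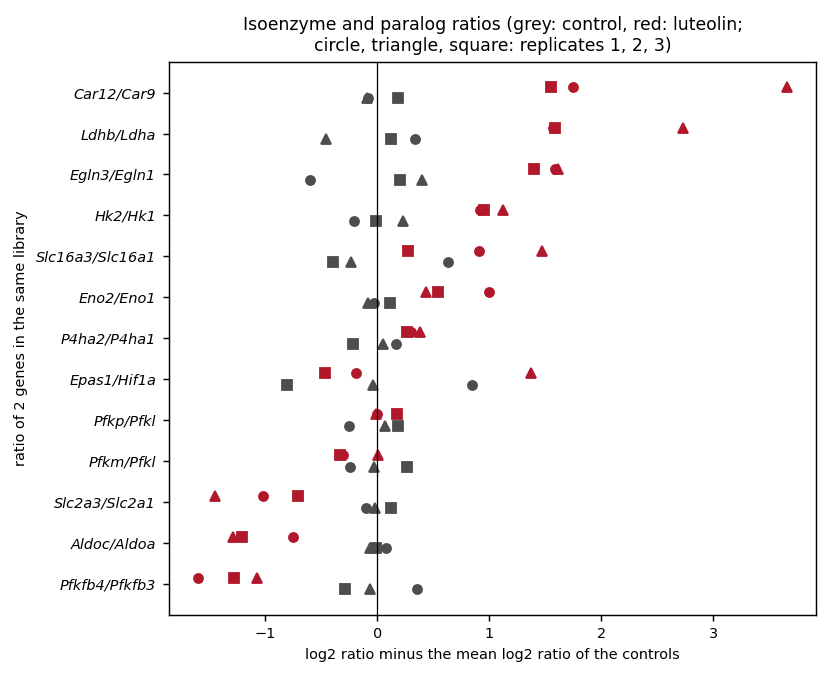
Log2 ratio of 2 genes in the same library, less the mean of the 3 controls, for 13 pairs (grey: control libraries; red: luteolin libraries; circle, triangle and square: replicates 1, 2 and 3). The red and grey points are apart for 9 pairs, from Car12/Car9 (2.32 higher on average) to Pfkfb4/Pfkfb3 (difference -1.32), and mixed for Pfkp/Pfkl, Pfkm/Pfkl, Slc16a3/Slc16a1 and Epas1/Hif1a.

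Other genes of glucose use numbered 50, of which 45 were tested. Hk3 alone passed as higher (1.34% of all genes did), and 0 were lower at an adjusted p under 0.05 with edgeR (0.187%). At an unadjusted p under 0.05 with edgeR 4 were lower (6.44% of all genes), and at an adjusted p under 0.05 2 were lower with DESeq2 (2.33%) and 6 with voom (8.76%). The median log2 fold change was 0.066, beside -0.0073 over all genes. Hk3 encodes the hexokinase typical of myeloid cells. It was at 15.8, 23.2 and 18.8 CPM in the controls and at 105, 75.2 and 89.8 CPM under luteolin. All luteolin libraries were far above the controls, and the log2 fold change was 2.22 ± 0.22 (SE, adjusted p = 0.0302). Its luteolin levels stood beside neutrophil marker sums of 226, 229 and 123 CPM and macrophage sums of 1511, 2267 and 1800 CPM, whose part in them was not tested.

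The next genes of that list by p were Ldhb and Tigar, a phosphatase that lowers fructose 2,6-bisphosphate, on the higher side. Tigar was at 1.42, 1.03 and 1.71 CPM and at 3.43, 9.50 and 2.33 CPM (log2 fold change 1.88 ± 0.61, SE, adjusted p = 0.159). On the lower side were Eno3, Pdp2 and Pdk2. Eno3, the muscle enolase, was at 98.8, 96.3 and 93.9 CPM and at 44.9, 63.4 and 48.1 CPM, below every control (-0.89 ± 0.17, SE, adjusted p = 0.0637). Pdp2, the phosphatase that switches pyruvate dehydrogenase on, was at 84.9, 90.8 and 80.3 CPM and at 55.0, 43.7 and 57.7 CPM, likewise below every control (-0.71 ± 0.16, SE, adjusted p = 0.0845). Pdk2, a kinase that switches it off, was at 32.7, 21.1 and 25.4 CPM and at 14.5, 19.9 and 15.9 CPM (-0.65 ± 0.24, SE, adjusted p = 0.192).

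Other genes of the HIF pathway and of the response to hypoxia numbered 44, of which 43 were tested. Of these, 4 passed and were higher (1.34% of all genes), and 0 were lower at an adjusted p under 0.05 with edgeR (0.187% of all genes). At an unadjusted p under 0.05 with edgeR 2 were lower (6.44% of all genes), and at an adjusted p under 0.05 1 was lower with DESeq2 (2.33%) and 4 with voom (8.76%). At the study's threshold 13 were higher (11.3% of all genes) and 0 lower (1.52%). The median log2 fold change was 0.17. Among the genes that rose were Loxl2, Hmox1 and Bhlhe40. Loxl2, a lysyl oxidase that links collagen, was at 19.7, 25.7 and 22.6 CPM in the controls and at 72.4, 81.6 and 70.3 CPM under luteolin (log2 fold change 1.72 ± 0.17, SE, adjusted p = 0.0302). The luteolin libraries were apart from the controls, whose spread was small.

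Hmox1, heme oxygenase 1, was at 49.1, 55.9 and 42.3 CPM in the controls and at 136, 139 and 98.9 CPM under luteolin (log2 fold change 1.35 ± 0.20, SE, adjusted p = 0.0366). Bhlhe40, a transcriptional repressor, was at 82.7, 80.8 and 76.7 CPM and at 222, 162 and 203 CPM (1.29 ± 0.16, SE, adjusted p = 0.0331). These genes answer to several signals besides oxygen. Fibroblasts and macrophages, whose markers were higher in the luteolin libraries, are known to express them. The part of these signals and cells in the levels was not tested. Like those of the 35 genes, these calls and that of Hk3 were lost without any 1 control or without luteolin 1, where no gene of the table passed. Without luteolin 2 and without luteolin 3, 5 and 3 genes of the HIF list passed. In those fits 1.82% and 0.993% of all genes were higher. On the lower side the smallest p-values belonged to Narf (-0.63 ± 0.13, SE, adjusted p = 0.0747), Apln (-0.55 ± 0.18, SE, adjusted p = 0.168) and Ccng2 (-0.45 ± 0.19, SE, adjusted p = 0.246).

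**Figure D5:**
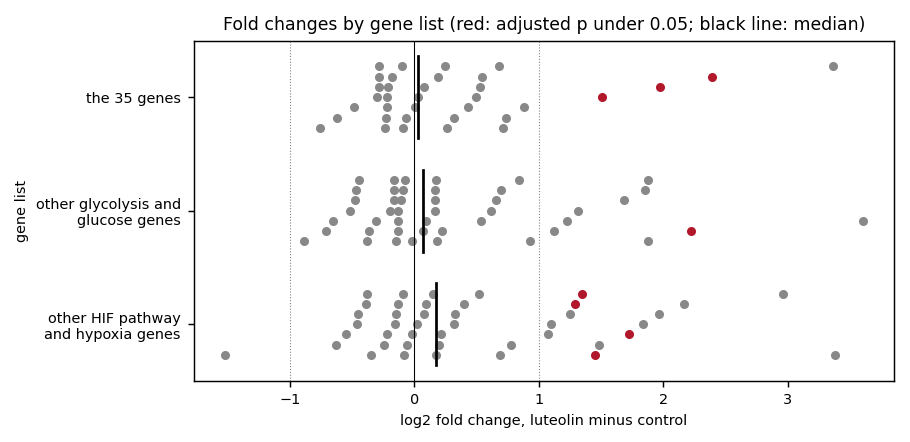
Log2 fold change, luteolin minus control, of each tested gene (1 point per gene, spread vertically for legibility) in the 35 genes, in the 45 other genes of glycolysis and glucose use and in the 43 other genes of the HIF pathway and hypoxia (red: adjusted p under 0.05; black line: median; dotted lines: 2-fold). The medians are 0.025, 0.066 and 0.17, and red points, 3, 1 and 4 of them, lie only on the higher side.

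Among themselves the 35 genes varied by library in ways shared across roles. Luteolin 2 was the lowest of the luteolin libraries for 19 of the 35 genes and luteolin 3 for 14, while luteolin 1 was the highest for 22. Control 3 was the lowest control for 22 genes. The highest control was a median of 1.26 times the lowest, and for the luteolin libraries this ratio was 1.34. Across the 35 genes, Spearman's rho between GC content and the log2 ratio of control 3 to control 1 was -0.62, a description over genes that share the same libraries. GC content ran from 41.3% in Hif1a to 57.7% in Pkm. Pfkfb3, Egln3 and Adm were near the middle of that range (50.2%, 51.4% and 50.7% GC), and with the GC and length offsets their log2 fold changes were 1.51, 1.93 and 2.35.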

How the data were processed

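RNA-seq libraries of subcutaneous H22 tumours were analysed, 3 from the control group and 3 from the 200 mg/kg luteolin group. The authors deposited estimated counts, whole numbers per gene symbol and library without scaling. Low values (1 to 40) were a multiple of 4 in 44.8% of cases, and a multiple of 4 or 1 above it in 70.3%. The submitters' processing notes name bcl2fastq 2.0, HISAT2, StringTie and DESeq2 and the builds mm39 and rn6. The labels and the methods name different extraction and library kits. Library totals were 61081637 to 80442954.

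Groups were compared with edgeR 4.0.16 in R 4.3.3 (TMM, filterByExpr, quasi-likelihood test, two-sided, no covariates, Benjamini-Hochberg adjustment over 14963 genes). The SE is the log2 fold change over the square root of F. Level of a gene is CPM over the TMM-scaled total. Ratios had 2 counts added to each gene. GC content and length are those of the longest GENCODE M21 transcript. The edgeR script was tested on simulated counts. Alternatives were DESeq2 1.42.0, voom of limma 3.58.1 with sample quality weights, other normalizations and filters, division of the values by 4, GC and length offsets, a block for the replicate number, and the 6 fits that leave out 1 library.

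The member genes, the gene and marker lists and the tests were chosen with earlier results of these data known. Named were all 35 genes, of the 2 further pathway lists the genes with an adjusted p under 0.05 and the 3 with the smallest p per direction, and, of each marker list, the 2 with the highest mean could be named. Other markers named are those at 0 in all controls, Dsp and those that define hepatocytes. Results of some genes that this rule selects are not reported here.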

Additional observations from a re-analysis of the deposited data

How the results depend on the processing

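The 3 genes with an adjusted p under 0.05 (Pfkfb3, Egln3 and Adm) passed under the other normalizations, both other filters and the division by 4. Of the 35 genes, 9 were higher with DESeq2, 11 with voom and 5 with the GC and length offsets. Of all genes these fits had 8.67%, 12.6% and 4.35% higher. With the replicate number as a block 0 were higher, against 0.227% of all genes. Over the fits that leave out 1 library the count ran from 0 to 5, against 0% to 1.82% of all genes. Lower were 2, 3 and 2 with DESeq2, voom and the offsets, against 2.33%, 8.76% and 1.84% of all genes. Under the block the smallest adjusted p of the 35 was 0.0825. At an unadjusted p under 0.05 the block had 9 of the 35 higher, against 10.7% of all genes. Same-numbered libraries did not deviate together (correlations of -0.20, -0.092 and 0.063). Deviations from a mean of 3 libraries cannot show whether same-numbered libraries shared a batch. Over all genes, 345 were higher and 47 lower with a minimum of 10 in every library, 1543 and 415 with DESeq2, 1886 and 1311 with voom, 34 and 1 under the block, 327 and 46 after division by 4, 637 and 270 with the offsets, and 0 to 276 and 0 to 36 with 1 library left out, 0 without any of the controls or luteolin 1. Of the other glucose genes, 3 were higher with DESeq2, 4 with voom, 2 with the offsets and 0 under the block, 0 to 1 with 1 library left out. At the study's threshold the block left a count of 2 higher, against 4 without it. Of the other HIF genes the counts were 11, 13, 7 and 1, and 0 to 5. The cause of these differences was not tested.

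Of the 35 genes, 30 kept the sign of their log2 fold change under all 16 alternatives. Gpi1 turned to -0.0036 with RLE, -0.015 without the filter, -0.0038 with DESeq2 and -0.023 with the offsets, and ran from -0.11 to 0.099 with 1 library left out. Eno1 turned to -0.049 with voom and -0.048 with the offsets (-0.072 to 0.097 with 1 library left out) and Pkm to 0.034 with voom. With 1 library left out Bnip3 ran from -0.054 to 0.64, P4ha2 from -0.00029 to 0.18, the log2 ratio Pfkp/Pfkl from -0.077 to 0.14 and Epas1/Hif1a from -0.33 to 0.66. Gpi1, Eno1, Pkm, Bnip3 and P4ha2 were called in none of these fits. Exact permutation tests of 3 against 3 libraries cannot go below 0.1, and the lowest count behind a level of the 35 genes was 128.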
